A study of Mus musculus with 14 samples.

Results

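KDM1A, also called LSD1, is the histone demethylase that was deleted from the oocytes of this study, and CoREST is the complex through which it reaches chromatin in many cells. Described here are 10 of the 24064 genes in the count table, taken by name: Kdm1a, its paralog Kdm1b, the 3 CoREST scaffold genes Rcor1, Rcor2 and Rcor3, the deacetylases Hdac1 and Hdac2, and the further subunits Phf21a, Hmg20b and Zmym2. The transcripts of single mouse oocytes were sequenced in 14 libraries that came from 10 oocytes. Control oocytes were 4 with the genotype wt/wt on the C57BL/6J strain, named wt1, wt3, wt4 and wt5 here, and 1 with the genotype f/f on a mixed B6;129 background, named C3. The f/f oocyte carries Kdm1a alleles with loxP sites and no Cre. The 5 mutant oocytes, named D1, D2, D3, D4 and D7, are labelled mko/mko, come from Kdm1a f/f females with the Zp3cre transgene, and have the same mixed B6;129 background as C3. The Zp3 promoter drives Cre in growing oocytes only, so the surrounding follicle cells keep the floxed allele. The labels give no age for the females and do not say whether oocytes of a group came from separate females, so p-values measure the spread between single oocytes. Strain and genotype cannot be told apart between wt/wt and mutant oocytes, and the f/f oocyte is the only control of the mutants' background.

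KDM1A removes methyl groups from mono- and dimethylated lysines of histone H3 with the help of the cofactor FAD. In the CoREST complex an RCOR protein holds KDM1A beside HDAC1 or HDAC2, so that deacetylation and demethylation of the same histone tail can be coupled, and the complex is best known as a corepressor of transcription. KDM1B is a related enzyme without an RCOR partner, known in growing oocytes for clearing H3K4 methylation before maternal DNA methylation imprints are set.

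Cre removes exon 1 of Kdm1a, and the sequence lost is shown because the count table does not resolve it. In the annotation of GRCm38 (mm10) the gene lies on the minus strand at chr4:136550540-136602723, and exon 1 of its transcript Kdm1a-203 is chr4:136602232-136602723. This exon has 492 bases, of which 354 are coding, and is followed by 2516 bases up to the 3′ end of the 3008-base transcript. The start of the coding part, chr4:136602466-136602585 on the minus strand, reads 5′ to 3′ as below, with the start codon in capitals.
Kdm1a exon 1: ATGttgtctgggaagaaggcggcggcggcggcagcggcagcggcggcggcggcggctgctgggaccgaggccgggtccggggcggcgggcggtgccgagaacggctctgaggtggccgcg
Reads were counted over the whole gene, so RNA that lacks this exon but keeps the rest would still add to the Kdm1a counts. Whether the reads in mutant oocytes came from such RNA was not tested.

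The 120 bases before 1 annotated start each of Kdm1a, Kdm1b, Zmym2 and Phf21a are shown because these genes were called in the comparison of mutant and control oocytes given further on. They were taken from RefSeq on GRCm38.p6, where Zmym2 and Phf21a each have another start that is not shown, and are written 5′ to 3′ on the strand of the gene, with each GGGCGG, on either strand, in capitals as the core of a GC box. The windows are chr4:136602724-136602843 for Kdm1a (minus strand), chr13:47043379-47043498 for Kdm1b, chr14:56886483-56886602 for Zmym2 and chr2:92185363-92185482 for Phf21a (plus strand).
Kdm1a: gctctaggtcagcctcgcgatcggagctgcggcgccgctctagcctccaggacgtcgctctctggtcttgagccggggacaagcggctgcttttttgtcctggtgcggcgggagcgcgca
Kdm1b: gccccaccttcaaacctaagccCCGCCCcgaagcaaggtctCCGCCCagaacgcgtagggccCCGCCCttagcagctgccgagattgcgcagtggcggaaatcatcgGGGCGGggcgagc
Zmym2: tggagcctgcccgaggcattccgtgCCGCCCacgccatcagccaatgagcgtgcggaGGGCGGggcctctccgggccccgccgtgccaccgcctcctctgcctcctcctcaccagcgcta
Phf21a: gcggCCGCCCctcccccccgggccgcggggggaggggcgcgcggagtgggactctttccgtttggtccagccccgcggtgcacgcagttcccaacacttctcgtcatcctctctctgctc
Kdm1b held 4 copies of the motif in this stretch, Zmym2 held 2, Phf21a held 1 and Kdm1a held 0. RefSeq promoters of 300 bases matched 9 of the 10 genes, all except Hdac1, with 13 promoters in all, since Hmg20b has 3 and Zmym2 and Phf21a have 2 each. The 3 of Hmg20b overlap almost wholly and the 2 of Zmym2 in part, so counts out of 13 take some bases more than once. GGGCGG on either strand was in 10 of the 13, from 8 of the 9 genes, and in 35.7% of 32851 mouse promoters. Kdm1a was the gene without it. CCAAT on either strand was in 6 of the 13, from Kdm1a, Rcor1, Hmg20b and Zmym2, and in 37.4% of all promoters. TATAAA was in 1, of Phf21a, against 13.6% of all promoters, and CACGTG in 1, of Rcor2, against 7.15%. By number of CpG, 12 of the 13 lay at percentile 75.2 to 98.6 of all promoters and the other Phf21a promoter at 5.43. A match is a run of letters and says nothing of binding.

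Total counts ran from 1375187 in wt1 to 6928548 in C3, and levels are given as CPM, the counts relative to the library total after TMM scaling between oocytes. In CPM, 3 counts stood for 0.456 in D4 to 1.83 in D2, and levels at or under that are counting noise. A gene was called when edgeR's quasi-likelihood test gave an adjusted p (Benjamini-Hochberg) below 0.05 with a log2 difference of 1 or more in size, and adjusted p of genes below are from that test. Calls were made for 25.9% of the 9198 genes with enough counts, with 14.7% higher and 11.2% lower, and the median log2 fold change was 0.17. Of 12 oocyte markers, 8 were called higher, and their summed level was 12100 to 53200 CPM in control and 59600 to 119000 CPM in mutant oocytes. The highest control sum was that of C3. Much of the sum was Gdf9, at 6170 to 15500 CPM in wt/wt oocytes, 38300 CPM in C3 and 27200 to 72100 CPM in mutant oocytes. Of 12 cumulus and granulosa cell markers, Cyp19a1 alone passed the count filter, and it was called higher. Their summed level was 9.42 to 63.0 CPM in control and 82.2 to 147 CPM in mutant oocytes, and Cyp19a1 alone had 8.52 to 62.8 CPM and 79.2 to 147 CPM. Has2, too rare to be tested, went the other way, with 4, 14, 3, 2 and 0 counts in control and 0, 1, 0, 0 and 0 in mutant oocytes. The markers Amh, Inhba, Fshr, Foxl2 and Lhcgr were at 0 in every oocyte. The part of these marker differences in the results below was not tested.

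Kdm1a, Kdm1b and Zmym2 were called lower in mutant than in control oocytes, and Phf21a was called higher on few counts. The Phf21a call was lost in 10 of 21 alternatives. The Zmym2 call was also lost in several, among them when wt1, wt4, D3, D4 or D7 was left out. These 4 were the genes called among the 9 that could be tested, and Rcor1 was counted too rarely to be tested. The share called over all genes was 25.9%, and nothing is read from the 4 of 9, since 1 of the 9 is the deleted gene and 2 passed the count filter through their mutant counts. The filter kept genes with at least 35 counts in all, and Phf21a had 7 control and 47 mutant counts, Hmg20b 6 and 34. In these 4 genes every mutant oocyte lay on 1 side of every control oocyte, by TMM scaling and by library totals. This describes genes already called, and nothing is read from it against the 16.2% of all genes tested that were separated. The median log2 fold change of the 9 genes was 0.24.

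**Figure D1:**
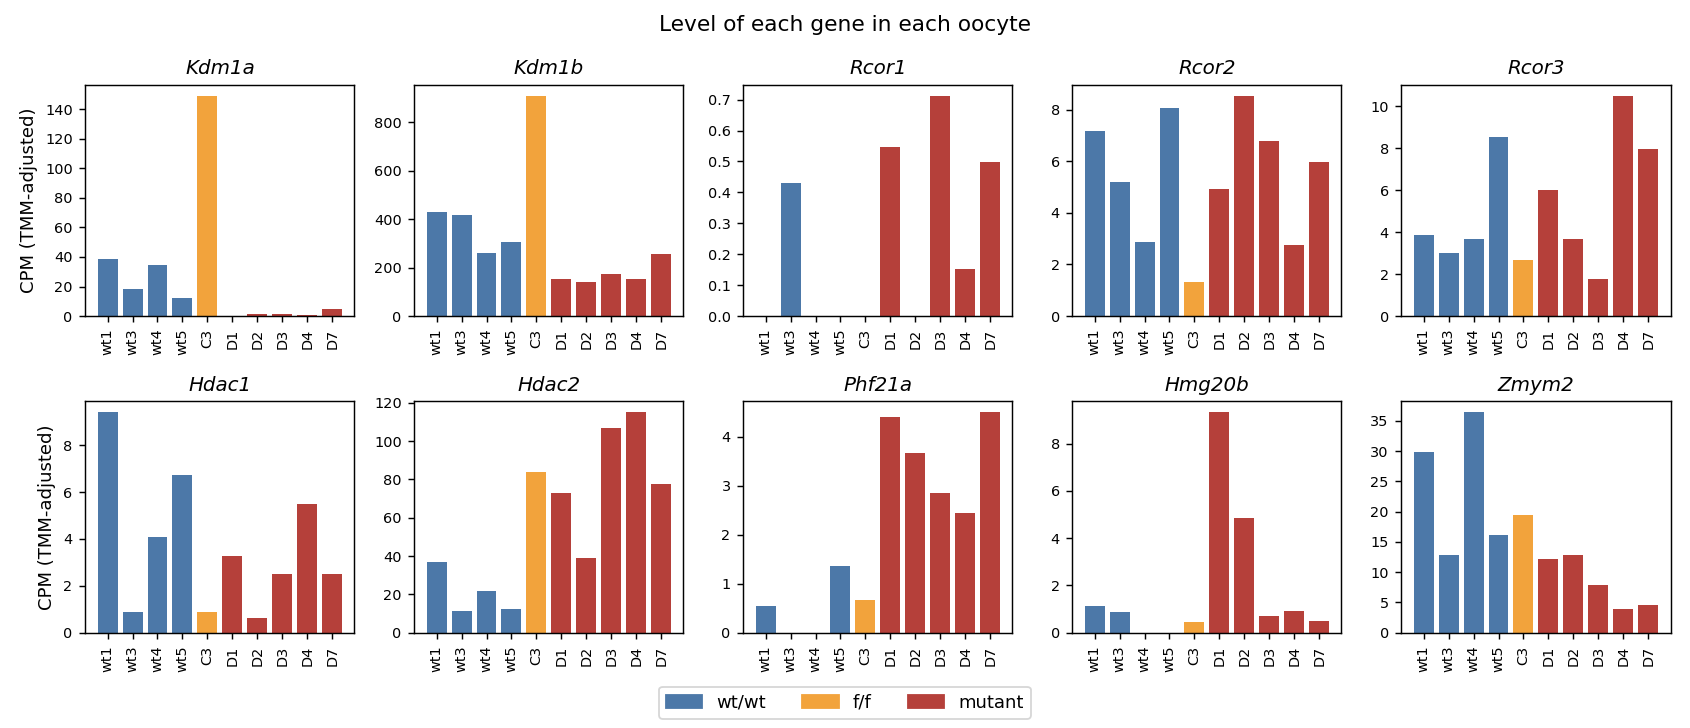
Level of each of the 10 genes in each oocyte, in CPM after TMM scaling, with 1 bar per oocyte, the colour giving the genotype and each panel on its own linear axis from 0. Kdm1a and Kdm1b stood highest in the f/f oocyte C3 (149 and 908 CPM), and in Hdac2 the f/f oocyte (83.7 CPM) sat among the mutants, all by TMM scaling.

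Kdm1a counts were 70, 43, 85 and 27 in wt1, wt3, wt4 and wt5, 669 in C3, and 0, 2, 4, 3 and 10 in the mutants in the order D1, D2, D3, D4 and D7, which is kept below. In CPM the wt/wt oocytes had 38.7, 18.6, 34.8 and 12.1, C3 had 149, and the mutant oocytes had 0, 1.22, 1.42, 0.456 and 4.99 in the same order. The groups did not overlap, and 4 of the 5 mutant oocytes had 4 counts or fewer. The log2 fold change was -5.02 (standard error 0.86, adjusted p = 0.0011), and it was -4.05 against wt/wt oocytes alone. Among the mutant oocytes D7 was highest, and 9 of its 10 Kdm1a counts were in the library of D7 whose name has a DNA suffix. On the opposite strand Kdm1a overlaps Luzp1, which shares no exon base with it and had a log2 fold change of 0.20.

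Kdm1b, the other flavin-dependent histone demethylase and the paralog of the deleted gene, was lower and not higher in mutant oocytes. Its counts were 780, 967, 636 and 681 in wt1, wt3, wt4 and wt5, 4092 in C3, and 282, 230, 490, 993 and 513 in the mutant oocytes. In CPM these were 431, 417, 260 and 306, then 908, then 155, 140, 174, 151 and 256. The lowest control oocyte, wt4, was just above the highest mutant oocyte, D7, so that the groups did not overlap but came close. The mean was 464 ± 259 CPM (SD, n = 5) in control and 175 ± 46.7 CPM (SD, n = 5) in mutant oocytes. From control to mutant this was a log2 fold change of -1.41, with a standard error of 0.38 (adjusted p = 0.0141). Against wt/wt oocytes alone the log2 fold change was -1.01 (adjusted p = 0.0204). Against the f/f oocyte alone it was -2.35 (95% interval -3.49 to -1.21, adjusted p = 0.1), with the lone control oocyte assumed to vary like the mutants. Kdm1b shares 498 of its 4987 exon bases with Dek on the opposite strand, and the strand setting of the counting is not stated. Dek itself had a log2 fold change of -0.65 (adjusted p = 0.145), and Tpmt, which overlaps Kdm1b without a shared exon base, had 0.39.

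Per kilobase of exon, Kdm1b RNA was in excess of Kdm1a RNA in every oocyte. The ratio of their levels was 6.86, 13.8, 4.6 and 15.5 in the wt/wt oocytes and 3.76 in C3. In the mutants it was 70.7 (95% exact counting interval 19.4 to 588) in D2, 75.4 (29.2 to 278) in D3, 204 (69.5 to 989) in D4 and 31.6 (17.0 to 66.2) in D7. D1 had no Kdm1a count, and the lower limit of the same interval was 46.7. Kdm1a had 2 counts in D2 and 3 in D4, within counting noise as defined above, so only the intervals of these ratios carry weight. The ratio was higher in every mutant oocyte with a Kdm1a count than in any control oocyte, although both genes were lower. The lower limit of D1 was also above every control ratio. Kdm1a, the deleted gene, is the denominator, so a higher ratio follows from its loss and says nothing of Kdm1b. However, the intervals of D2 and D7 overlapped that of wt5 (10.6 to 23.7), and that of D7 also overlapped wt3 (10.2 to 19.2). With at most 3 kb counted per transcript, the reach of the cDNA, every ratio was 1.63 times as large.

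**Figure D2:**
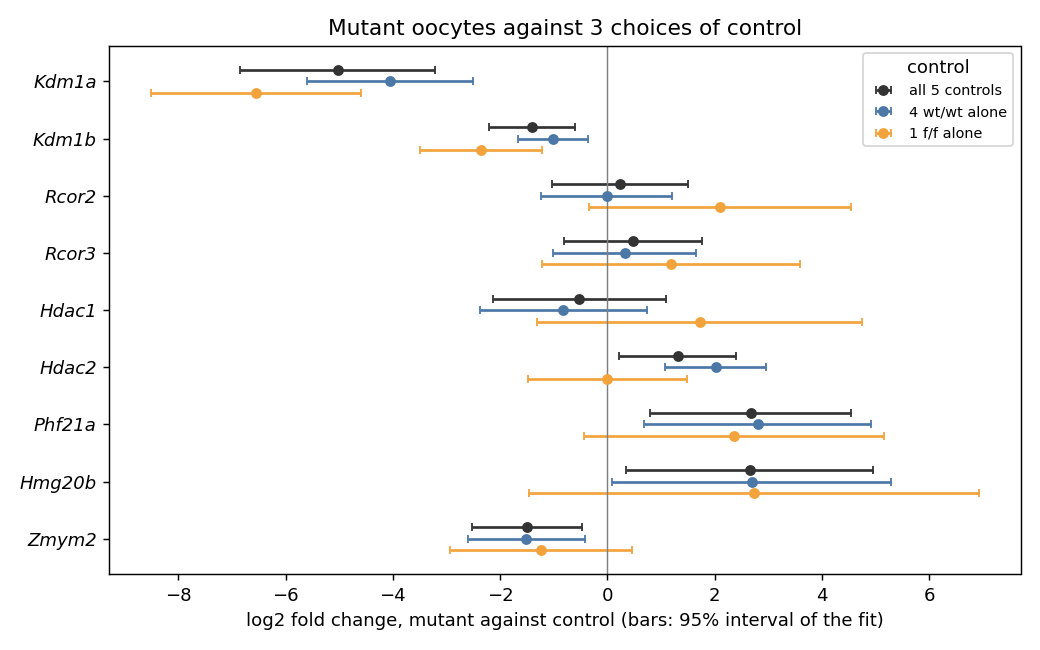
Change from control to mutant, as log2 fold change, for the 9 genes tested, with the 95% interval of the fit, for all 5 control oocytes, the 4 wt/wt oocytes alone and the f/f oocyte alone. Kdm1a lay below 0 with each control (-5.02, -4.05 and -6.55), while Hdac2 was at 2.02 against wt/wt and at 0.00 against f/f.

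The RCOR proteins are the scaffolds of the complex, and none of their genes was called. Rcor1 had 0, 1, 0 and 0 counts in the wt/wt oocytes, 0 in C3 and 1, 0, 2, 1 and 1 in the mutant oocytes, at or under 3 counts in each, so no fold is given. Rcor2, best known from stem cells and neural progenitors, had 7.18, 5.18, 2.86 and 8.07 CPM in the wt/wt oocytes, 1.33 in C3 and 4.94, 8.53, 6.77, 2.74 and 5.98 in the mutants. Rcor3 had 3.87, 3.02, 3.68 and 8.52 CPM in the wt/wt oocytes, 2.66 in C3 and 6.03, 3.66, 1.78, 10.5 and 7.98 in the mutants. Both groups overlapped widely for Rcor2 and for Rcor3. The log2 fold change of Rcor2 was 0.24 (95% interval -1.04 to 1.51, adjusted p = 0.799) and turned to -0.34 when library totals replaced TMM scaling. That of Rcor3 was 0.48 (95% interval -0.80 to 1.76, adjusted p = 0.586). These intervals leave room for changes of more than 1 in log2 either way for Rcor2, and upward for Rcor3.

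The division of RCOR counts among the 3 genes does not depend on scaling between oocytes, but it is a share of counts and not of molecules, since the transcripts have 2720, 2823 and 4305 exon bases for Rcor1, Rcor2 and Rcor3. Rcor2 made up 50.1 ± 12.7% (SD, n = 5) of them in control and 49.6 ± 22.0% (SD, n = 5) in mutant oocytes. Rcor3 made up 48.9 ± 13.8% and 47.0 ± 23.1%, and Rcor1 made up 1.0 ± 2.24% and 3.41 ± 3.04%. A two-sided exact permutation test over every grouping of the oocytes into 5 and 5 gave p = 0.952 for Rcor2, 0.881 for Rcor3 and 0.246 for Rcor1, or 0.952, 0.952 and 0.492 after adjustment over 4 shares (n = 5 per group). The mutant oocytes differed widely among themselves, from an Rcor3 share of 19.2% in D3 to 78.4% in D4.

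HDAC1 and HDAC2 are the deacetylases of CoREST and also serve the NuRD and Sin3 complexes. Hdac1 had 9.4, 0.863, 4.09 and 6.73 CPM in the wt/wt oocytes, 0.888 in C3 and 3.29, 0.609, 2.49, 5.48 and 2.49 in the mutants. The groups overlapped, and the log2 fold change of -0.52 (95% interval -2.13 to 1.09, adjusted p = 0.643) was not a call. Hdac2 had 37, 11.2, 21.7 and 12.1 CPM in the wt/wt oocytes, 83.7 in C3 and 72.9, 39, 107, 115 and 77.8 in the mutants. Every mutant oocyte was above every wt/wt oocyte, and the f/f oocyte was above 3 of the 5 mutants. Both statements depend on the scaling: in CPM by library totals without TMM, wt1 (48.7) was above D2 (31.7), and C3 (54.4) was above D2 only. The log2 fold change of Hdac2 was 1.31 (95% interval 0.21 to 2.40, adjusted p = 0.072) against all controls. DESeq2 called it higher on the same counts (adjusted p = 0.0421). Against wt/wt oocytes alone it was 2.02 (adjusted p = 0.0035), where 31.5% of the 9166 genes tested were called, and 5 of the 9 tested genes described here, Hdac2 being the added one. Against the f/f oocyte alone it was 0.00 (95% interval -1.48 to 1.48, adjusted p = 0.998).

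Hdac2 made up most of the counts of the pair in every oocyte, with 2005 exon bases against 2038 for Hdac1. Its share was 79.8, 92.9, 84.1 and 64.3% in the wt/wt oocytes, 99.0% in C3 and 95.7, 98.5, 97.7, 95.5 and 96.9% in the mutants. The mean was 84.0 ± 13.3% (SD, n = 5) in control and 96.8 ± 1.29% (SD, n = 5) in mutant oocytes, a difference of 12.8 percentage points (two-sided exact permutation test, p = 0.0556, adjusted p = 0.222). Every mutant oocyte had a higher share than every wt/wt oocyte, and the f/f oocyte had the highest of all. Against wt/wt oocytes alone the difference was 16.6 percentage points (exact permutation test, adjusted p = 0.0317, the smallest that this design allows after adjustment).

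**Figure D3:**
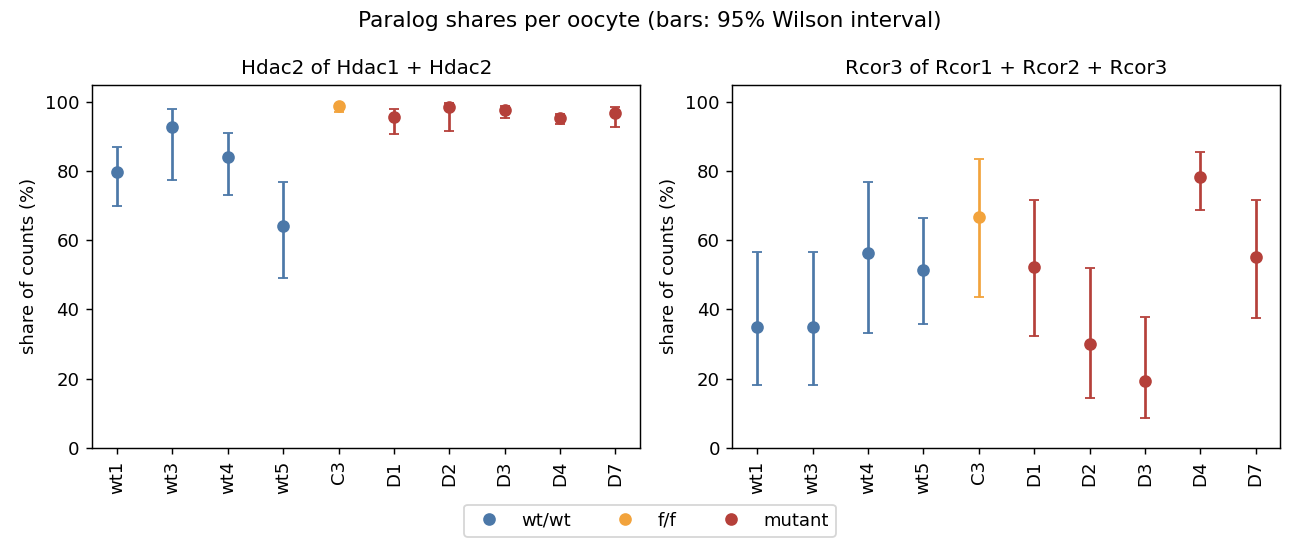
Share of Hdac2 in the counts of Hdac1 and Hdac2 (left) and of Rcor3 in the counts of the 3 Rcor genes (right), in percent, 1 point per oocyte with its 95% Wilson interval, which covers counting error only. The mutant Hdac2 shares lay between 95.5 and 98.5%, above the wt/wt oocytes and below C3 at 99.0%, and the Rcor3 shares of the groups overlapped.

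Phf21a encodes BHC80, the subunit that reads unmethylated H3K4, the product of KDM1A. It had 1, 0, 0 and 3 counts in the wt/wt oocytes, 3 in C3 and 8, 6, 8, 16 and 9 in the mutant oocytes. In CPM this was 0.553, 0, 0, 1.35 and 0.666 in control and 4.39, 3.66, 2.85, 2.43 and 4.49 in mutant oocytes. The groups did not overlap, and no control oocyte rose above 3 counts. Over each group as a whole there were 7 control and 47 mutant counts, a ratio of 6.01 after scaling (95% counting interval 2.7 to 15.8). The fitted log2 fold change of 2.67 (adjusted p = 0.0354) depends on the prior count at such levels. The call was lost with no count filter (adjusted p = 0.0606), with library totals (2.35, adjusted p = 0.0738), and when any 1 of wt1, wt3, wt4, D1, D2 or D7 was left out, at adjusted p of 0.0557 to 0.0764. With 1 oocyte left out the log2 fold change ran from 2.37 (without wt4) to 3.29 (without wt5).

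Hmg20b encodes BRAF35, a DNA-binding HMG-box subunit. Its counts were 2, 2, 0 and 0 in the wt/wt oocytes, 2 in C3 and 17, 8, 2, 6 and 1 in the mutant oocytes. In CPM the mutant oocytes had 9.32, 4.87, 0.712, 0.913 and 0.499, so that D1 and D2 stood above all controls, whose highest was 1.11, while the other 3 did not. The 6 control and 34 mutant counts gave a ratio of 5.08 (95% counting interval 2.11 to 14.8), an interval that leaves out the spread between oocytes. The log2 fold change of 2.65 was not a call (adjusted p = 0.0814). Without D1 or without D2 the gene did not pass the count filter. DESeq2 called it (adjusted p = 0.0482).

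Zmym2, a zinc finger protein that joins the complex and binds SUMO, had 29.8, 12.9, 36.4 and 16.1 CPM in the wt/wt oocytes, 19.5 in C3 and 12.1, 12.8, 7.83, 3.95 and 4.49 in the mutants. The groups did not overlap, with D2 at 12.8 just under wt3 at 12.9. The log2 fold change was -1.5 (standard error 0.49, adjusted p = 0.033), and the f/f oocyte lay among the wt/wt oocytes by TMM scaling. By library totals C3 (12.7 CPM) lay below every wt/wt oocyte (17.2 to 47.0 CPM) and above every mutant. The call was lost when any 1 of wt1, wt4, D3, D4 or D7 was left out, at adjusted p of 0.0667 to 0.107.

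Per kilobase of exon, Kdm1b was the most abundant of the 10 transcripts in control oocytes at 93.1 ± 51.9 CPM per kb (SD, n = 5), above the next gene in 5 of 5 oocytes. Hdac2 (16.5 ± 15.0) and Kdm1a (16.5 ± 18.2) followed and did not differ beyond their spread. Both means were raised by C3, at 41.7 for Hdac2 and 48.4 for Kdm1a, and were 10.2 and 8.48 in wt/wt oocytes alone. Zmym2 (3.12 ± 1.34), Hdac1 (2.16 ± 1.82) and Rcor2 (1.75 ± 1.01) came next, each above its lower neighbour in 3 or 4 of 5 oocytes, and those differences were also within or near their spread. With at most 3 kb counted per transcript, Zmym2 was at 7.66 ± 3.28 and above Hdac1 in 5 of 5 control oocytes, by 5.5 ± 3.0 (SD). Rcor3 was at 1.01 ± 0.553, above Hmg20b (0.287 ± 0.298) in 5 of 5 oocytes. Phf21a (0.0748) and Rcor1 (0.0317) were at the end and could not be ordered. In mutant oocytes Hdac2 (41.1 ± 15.1 CPM per kb) and Kdm1b (35.1 ± 9.37) were first and did not differ beyond their spread, Hdac2 being above in 3 of 5 oocytes. By full length Kdm1a went from place 3 to place 8, at 0.527 ± 0.642 CPM per kb (SD, n = 5), where it could not be ordered against Phf21a at 0.52. Counting at most 3 kb per transcript put Kdm1b at 58.4 and Hdac2 at 41.1 in mutant oocytes, a difference of 17.3 ± 20.6 (SD) that was again within its spread. Kdm1a then went from place 2, where it was 0.311 ± 4.89 (SD) above Hdac2 and could not be ordered against it, to place 9. In wt/wt oocytes alone, counted the same way, it was at place 3. There it was above Zmym2 in 2 of 4 oocytes, by a mean of 0.732 ± 2.01 (SD).

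**Figure D4:**
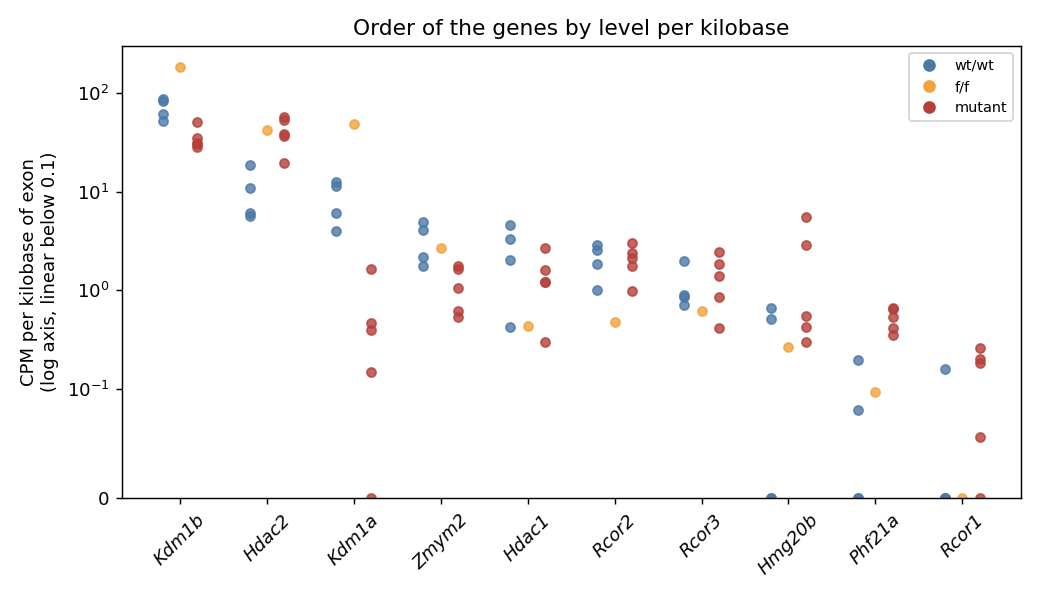
Level of each gene in CPM per kilobase of exon, 1 point per oocyte, on a log axis that is linear below 0.1, with genes in the order of their control mean. Kdm1b led in all control oocytes, and Kdm1a dropped from a control mean of 16.5 to 0.527 in mutants. The Kdm1a mean was 8.48 in wt/wt oocytes alone, with C3 at 48.4, and among the mutants D7 was highest at 1.63.

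Genes whose level followed Kdm1a most closely over the 10 oocytes, by Pearson's r of log2 CPM, were Bmi1 (0.986), Rmnd5a (0.984) and Lbr (0.969). For Kdm1b they were Zscan29 (0.945), Bmi1 (0.939) and Rrs1 (0.936). These values describe oocytes that share their genotype and library differences, and they carry no test. Within the groups r was lower for some of them, down to 0.792 in control oocytes for Lbr with Kdm1a, and to 0.714 for Zscan29 and 0.568 for Rrs1 with Kdm1b in mutant oocytes. Rrs1 also had a log2 fold change of -4.98 between the groups. Most Kdm1a levels in mutant oocytes were near the level of 3 counts.

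Around CoREST stand DNA-binding factors that recruit it and other complexes that use the same deacetylases. Of 48 such genes 36 were tested and 9 were called, 5 higher and 4 lower, which is close to the share of 25.9% over all genes, and their median log2 fold change was 0.31. Of 17 genes associated with KDM1A and CoREST, 11 were tested, with a median of 1.05. Snai1, a transcription factor that recruits KDM1A to promoters, was higher (log2 fold change 2.57), and Insm1, another zinc finger factor that binds KDM1A, was lower (-3.03). Insm1 had 59.3 to 184 CPM in control and 0.548 to 39.4 CPM in mutant oocytes, without overlap.

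Of 12 genes of NuRD, a remodelling and deacetylase complex, 11 were tested with a median of 0.32. Chd4, its ATPase, and Mta3, a scaffold subunit, were higher (log2 fold changes 2.28 and 1.77). Of 13 genes of the Sin3 complex, 12 were tested with a median of -0.39. Sin3b, a scaffold, was higher (1.13, adjusted p = 0.0484), and Brms1l and Ing1 were lower (-1.84 and -1.6). The groups overlapped for Sin3b, with D4 at 135 CPM below wt5 at 166 CPM and C3 at 142 CPM. Of 6 genes of the MiDAC and MIER complexes, 2 passed the count filter and both were called, Mier2 higher (2.91) and Mier3 lower (-2.0). Called were 2 of 11 genes associated with KDM1A and CoREST, 2 of 11 of NuRD and 3 of 12 of Sin3, beside 25.9% over all genes. Nothing is read from the 2 of 2. Mier2 spanned 8.97 to 370 CPM among the mutant oocytes, and D4 at 8.97 lay within the control range of 4.42 to 25.8. Against the f/f oocyte alone the log2 fold changes were 1.25 for Chd4, 1.48 for Mta3 and 0.71 for Sin3b. In the same comparison they were -1.0 for Brms1l, -1.85 for Ing1, 3.4 for Mier2 and -2.24 for Mier3.

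**Figure D5:**
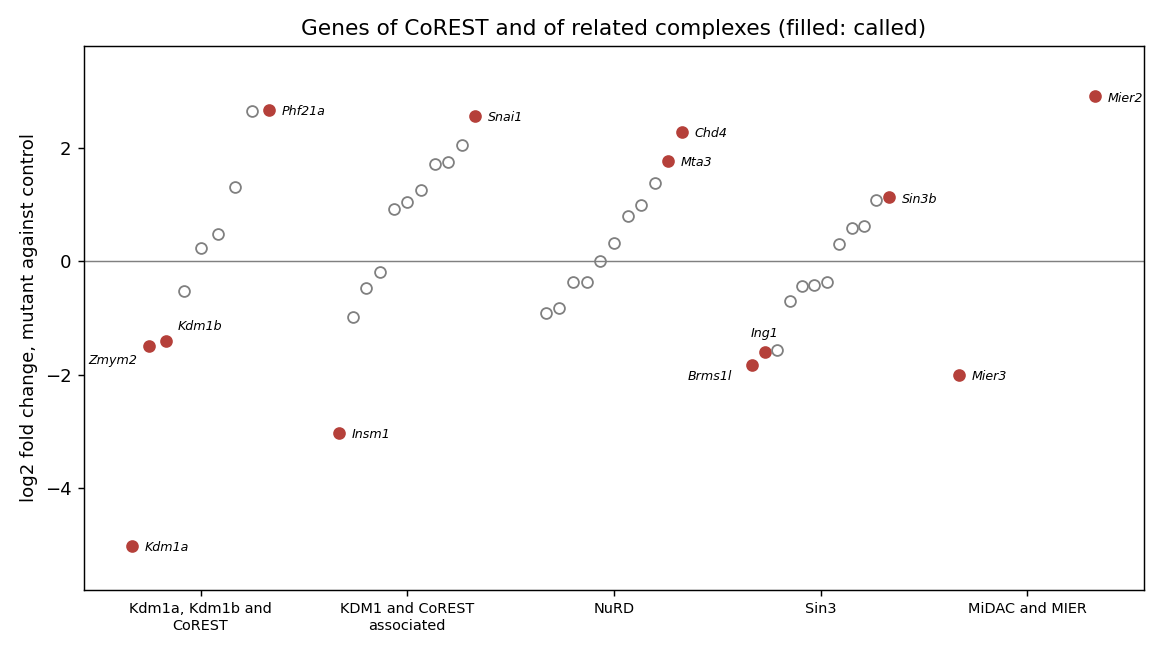
Change from control to mutant, as log2 fold change, for each tested gene of 5 lists, sorted within the list, with called genes filled and named. Called genes lay on both sides of 0 in each list except NuRD, where Chd4 (2.28) and Mta3 (1.77) were both higher.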

How the data were processed

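Single ovulated oocytes were lysed, and amplified cDNA, which reaches up to 3 kb from the 3′ end, was sequenced. The deposited values are raw counts for RefSeq genes, produced by the authors through quality filtering, alignment to mm10 with TopHat2 2.0.6, selection of unique best alignments and counting with HTSeq 0.5.3p9 (versions from the submitters' processing notes). Libraries that share an oocyte name (C3, D3, D4 and D7) were summed, although the descriptions number them as separate oocytes. Their Spearman correlation was 0.94 to 0.979, and at most 0.908 with other names.

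Of 15432 genes with a count, the top 60% by total count were kept, and 9198 were tested in R 4.3.3 with edgeR 4.0.16 (TMM, glmQLFit, glmQLFTest) with group as the only term. TMM factors were 0.651 to 1.37. Intervals of log2 fold changes are from the fit, and Wilson and ratio intervals cover counting error only. Shares were tested by exact permutation over oocytes with scipy. The procedure was tested on simulated data. Alternatives were DESeq2 1.42.0, other scaling, no filter, other units of sampling, a replicate block, either control alone, thinned counts and leaving out each oocyte. Coordinates are from GENCODE vM21, promoters from RefSeq. Named are the 10 genes, up to 3 called genes per direction of each related list and the 3 genes most like Kdm1a and Kdm1b. Members and lists were chosen with earlier results of these data known. Two-cell embryos were not analysed here.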

Additional observations from a re-analysis of the deposited data

Results flagged for a closer look

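In 26 sets of 5 oocytes, the levels of the 9 tested genes, the total counts and 3 paralog shares in each group, an oocyte was taken to stand apart when its gap to the nearest other exceeded 0.71 of the range. This held in 6 sets. An expectation of about 1.3 by chance assumes independent sets of normally distributed values. The same oocytes recur in these sets, so the 6 cannot be set against it and no excess is read. Among control oocytes C3, the f/f oocyte, stood apart in Kdm1a at 149 CPM, with the next at 38.7. It stood apart in Kdm1b at 908 CPM, with the next at 431, and in its total of 6928548 counts, with the next at 1892015. The first 2 gaps depend on the TMM factor of C3, 0.651 against 1.3 to 1.37 in wt/wt oocytes. Relative to library totals, chosen as an alternative after seeing the data, the gap of C3 was 0.57 of the range for Kdm1a and 0.092 for Kdm1b (591 CPM against 567 CPM in wt1), and C3 no longer stood apart. C3 is the sum of 2 libraries and the only control of its strain, and the part of either in these levels was not tested. Without C3 the log2 fold change was -4.05 for Kdm1a and -1.01 for Kdm1b. In Rcor3 the control oocyte wt5 stood apart at 8.52 CPM, with the next at 3.87, and by library totals its gap was 0.66.

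Among mutant oocytes D7 stood apart in Kdm1a at 4.99 CPM, with the next at 1.42, and 9 of its 10 counts were in the library with the DNA suffix. By library totals its gap was 0.737. D4 stood apart in its total of 6926076 counts, with the next at 3245395.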

How the results depend on the processing

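Kdm1a kept its direction and its call under the 20 alternatives with more than 1 control oocyte, at log2 fold changes of -5.97 to -4.05 with 1 oocyte left out and adjusted p of 1.19e-08 to 0.00513. The 2384 calls over all genes became 966 with the replicate block and 3 against the f/f oocyte alone, and were 1607 (without D1) to 2885 (without C3) with 1 oocyte left out. The genes described here had 4 calls, 2 with the replicate block, 1 against f/f alone and 2 to 5 with 1 oocyte left out (2 without wt1, wt4 or D7). The related genes had 9, then 4, then 0 (edgeR, where 1670 of all genes had an unadjusted p under 0.05), and 7 to 13 with 1 left out. The replicate block used the numbers in the descriptions with libraries kept apart, and these numbers did not pair the oocytes (correlations of deviations -0.0902 to 0.0984). With it Hdac2 was called (1.83, adjusted p = 0.0485), and Kdm1b (-1.42, 0.0707), Phf21a (3.61, 0.106) and Zmym2 (-0.91, 0.349) were not. Hdac2 was also called with DESeq2 (adjusted p = 0.0421) and with no filter (0.0468), within a range of 0.0035 to 0.998. Phf21a lost its call in 10 alternatives (adjusted p over all 0.0121 to 0.331) and Zmym2 in 8 (0.00658 to 0.398). Library totals moved the median over all genes by -0.39 and took the higher calls from 56.8% to 36.6% of calls. Directions turned in genes without a call: Rcor2 to -0.34 with library totals and -0.01 without C3 (-0.01 to 0.54 with 1 oocyte left out), Rcor3 to -0.31 and Hdac1 to 0.07 with the replicate block, and Hdac1 to 1.72 against f/f alone. The Rcor2 share turned to 0.0131 percentage points with every library apart (-6.47 to 6.68 with 1 oocyte left out). The Rcor3 share turned to 3.69 with 1 library per oocyte, 2.64 against wt/wt alone and 0.0184 thinned (-9.66 to 5.14 with 1 left out). The Hdac2 share difference passed its test against wt/wt alone (16.6), in a range of 7.92 to 16.6. The causes were not tested. Rcor1, Phf21a and Hmg20b had at most 17 counts in any oocyte, so their counting error is large.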
